A study of Homo sapiens with 30 samples.

Results

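Gene expression was compared between CHIR-treated U2OS cells with and without a FOXP2 protein that lacks a short helix. The comparison holds 10 of the 30 libraries of the series: 5 labelled FOXP2 dhelix + CHIR, in which the overexpressed FOXP2 lacks residues 264 to 272, and 5 labelled CHIR, which have the treatment without the construct. They were chosen by those labels alone. U2OS is an established human osteosarcoma line, so the results are those of a single cell line. All cells of both groups received 5 µM CHIR99021 (CHIR), and the helix-deleted group was then transfected with 500 ng of plasmid for 48 h, with CHIR added 72 h before transfection. The labels do not say whether the CHIR-alone cells went through a transfection or received an empty plasmid, so effects of helix-deleted FOXP2 and of plasmid transfection cannot be told apart. Of the other groups, 3 are used below: mock-transfected cells and cells with helix-deleted FOXP2, both without CHIR, and cells with wild-type (WT) FOXP2 + CHIR, each with 5 libraries that the labels call biological replicates.

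FOXP2 is a forkhead transcription factor that binds DNA through its forkhead domain and is best known as a repressor and from inherited disorders of speech and language. CHIR99021 inhibits glycogen synthase kinase 3, the kinase that marks β-catenin for destruction, and is widely used to activate canonical Wnt signalling, in which β-catenin enters the nucleus and acts with TCF/LEF factors on target genes. The title of the series names β-catenin as a regulator of FOXP2 through binding sites on it, and the comparison asks what FOXP2 without the helix does to gene expression when the pathway is switched on.

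RNA levels are given in CPM, counts relative to library size with sizes scaled by trimmed means of M values. The number behind each ± is an approximate standard error (SE) of that log2 fold change. It was worked back from the change and its test result, and can be too small where a group has few counts. With 6 MLC1 counts over the CHIR-alone libraries, it was 0.15 for the effect of the construct with CHIR and 0.11 without. For the difference between these effects it was 0.50. CPM is not corrected for gene length, so levels are compared between samples and not between genes. A gene is said to have risen or fallen where its Benjamini-Hochberg adjusted p in edgeR's quasi-likelihood test was under 0.05. Total counts were 15867847 to 21529366 in the 10 libraries. CHIR-alone replicate 1 stood apart from its group: compared pairwise within the group, its counts gave an average chi-square of 28.6 per gene, where the other CHIR-alone libraries gave 7.41 to 10.8 and the helix-deleted + CHIR libraries 2.05 to 2.84. Replicate 5 of helix-deleted FOXP2 without CHIR (11.0, others 3.93 to 4.63) and replicate 4 of WT FOXP2 + CHIR (5.98, others 2.97 to 4.46) did so less. In these groups each average includes the pair with the library that stood apart. Pairs without CHIR-alone replicate 1 gave 1.78 to 4.14, close to the 1.76 to 3.69 of helix-deleted + CHIR pairs. Pairs without the libraries just named gave 1.57 to 3.24 with helix-deleted FOXP2 without CHIR and 1.39 to 3.55 with WT FOXP2 + CHIR. The first principal component over the 10 libraries held 88% of the variance and separated the 2 groups. The RNA came from whole cultures, so fewer cells of a kind and less RNA per cell cannot be told apart.

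FOXP2 RNA was nearly absent with CHIR alone and abundant with the construct. Its level was 0.257, 0.249, 0.330, 1.33 and 0.357 CPM in the CHIR-alone libraries and 13900, 14200, 11900, 13800 and 13500 CPM in those with helix-deleted FOXP2. The groups did not overlap, and the difference of 14.7 on the log2 scale had a two-sided exact permutation p of 0.00794, the smallest that 5 against 5 libraries can give. Counts per gene hold no information on the deletion itself, so they check that FOXP2 was overexpressed and not which form it was. WT FOXP2 + CHIR libraries held more FOXP2 RNA: the helix-deleted level was 0.881 times theirs (exact permutation p = 0.0159), a difference that did not pass edgeR's test over all genes (-0.18 ± 0.08, adjusted p = 0.11) and did when only those 2 groups were fitted (adjusted p = 0.019) or with no filter on low counts (adjusted p = 4.9e-06). It was 2.53 times the level reached by the same construct without CHIR (exact permutation p = 0.00794).

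The response was broad. Of 18485 genes tested, 14031 passed the threshold (75.9%), 6842 upward (37.0%) and 7189 downward (38.9%). A second, stricter call used edgeR's test against a 2-fold change: 2688 genes passed it (14.5%), 1702 upward (9.21%) and 986 downward (5.33%). Without CHIR-alone replicate 1 the counts were 7197 up and 7082 down, and 1716 and 968 by the 2-fold test. In 10458 genes (56.6%) the libraries of the 2 groups did not overlap. With shares of this size, most gene groups hold many calls. The counts of each group below are therefore to be read beside these shares. Its median is to be read beside that of all genes tested, which was -0.03 on the log2 scale.

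**Figure D1:**
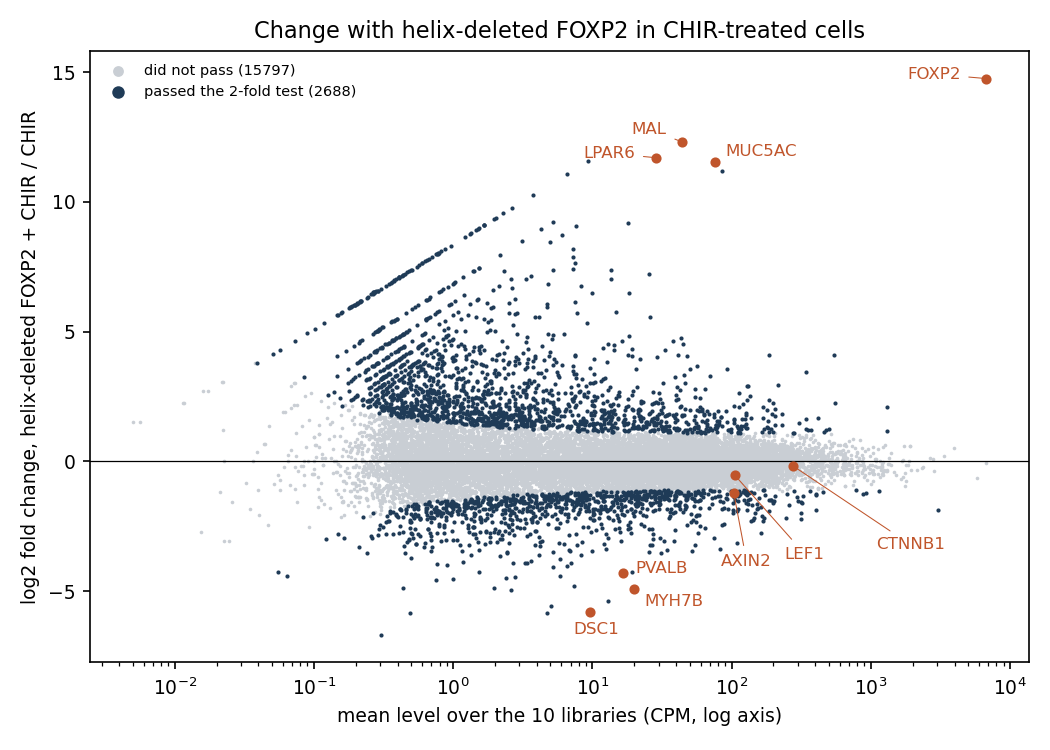
Each point is 1 of 18485 genes; the x axis is its mean level over the 10 libraries (CPM, log axis) and the y axis its log2 fold change, helix-deleted FOXP2 + CHIR over CHIR alone. Dark points pass the test against a 2-fold change (1702 up, 986 down), and the labelled genes are members of the 12 largest rises and falls or fixed Wnt genes; the streaks at upper left are genes with 0 or few counts with CHIR alone, for which the fitted value is no bound.

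The largest rises were of genes that were at or near 0 with CHIR alone. MUC5AC, a gel-forming mucin of airway and stomach surfaces, stood at 0, 0.124, 0, 0.0632 and 0.0595 CPM with CHIR alone and at 146, 166, 148, 131 and 163 CPM with helix-deleted FOXP2. MLC1, a membrane protein known from astrocytes, went from 0.103, 0, 0.0472, 0.126 and 0.0595 CPM to 168, 179, 171, 158 and 180 CPM. The groups were far apart in both genes, with fitted log2 fold changes of 11.54 ± 0.19 for MUC5AC and 11.19 ± 0.15 for MLC1. These rest on 4 and 6 counts over the 5 CHIR-alone libraries, so their size is less certain than the SE says. MAL, a lipid-raft protein, had 1 count over the 5 CHIR-alone libraries and 81.1, 90.3, 89.5, 87.1 and 91.5 CPM with the construct, a ratio of 7840 with a 95% counting interval of 1410 to 310000. LPAR6, a receptor for lysophosphatidic acid, also had 1 count and rose to 49.8, 56.9, 54.7, 62.2 and 63.9 CPM, a ratio of 5130 (921 to 203000).

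Other genes of this kind ended at lower levels. A second gel-forming mucin, MUC5B, had no counts with CHIR alone and a mean of 3.35 CPM with the construct, at least 19.7-fold higher against a floor of 3 counts per library. The same bound was 31.2-fold for LA16c-366D3.1 and 23.8-fold for the adhesion-molecule relative CEACAM20. DPP6, an auxiliary subunit of potassium channels, had 2 counts over the CHIR-alone libraries and a mean of 15.2 CPM with the construct. TSPEAR had 1 count and reached 8.49 CPM. The long non-coding RNA LINC00659 went from 0.0554 to 35.8 CPM, a fitted log2 rise of 9.18 ± 0.22. With 5 counts over the CHIR-alone libraries, its size is also less certain than the SE says. FRG2B, at least 17.3-fold higher, belongs to a family of near-identical subtelomeric copies and is uncertain for that reason.

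The largest falls were mostly of genes that mock cells barely had. DSC1, a desmosomal cadherin, was at 21.5, 16.8, 16.8, 19.1 and 20.8 CPM with CHIR alone and at 0.302, 0.0586, 0.621, 0.662 and 0.0563 CPM with helix-deleted FOXP2. MYH7B, a myosin heavy chain, was at 33.5, 41.4, 44.6, 42.5 and 31.4 CPM and fell to 1.96, 0.938, 1.18, 1.54 and 0.563 CPM. PVALB, the calcium-binding protein parvalbumin, was at 28.7, 32.2, 34, 31.1 and 32.4 CPM and fell to 2.42, 1.06, 1.12, 2.15 and 1.13 CPM. None of the 3 genes overlapped between groups. On the log2 scale DSC1 fell by 5.79 ± 0.23, MYH7B fell by 4.94 ± 0.14 and PVALB fell by 4.30 ± 0.14. In mock cells their mean levels were 0.0411, 0.566 and 0.828 CPM. Among the 12 largest falls, 11 genes had a mean under 1 CPM in mock cells, the exception being CCDC67 at 2.82 CPM, which fell from 25.3 to 0.591 CPM. Also in this group were C1orf168, KRT39, a keratin, PPP2R2B, a regulatory subunit of protein phosphatase 2A, and ABHD12B, with log2 fold changes between -5.58 and -4.43. RGPD1, RGPD2, RGPD3 and RGPD4 complete the 12. They are near-identical copies, so their reads may have been shared among them and each value is uncertain.

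**Figure D2:**
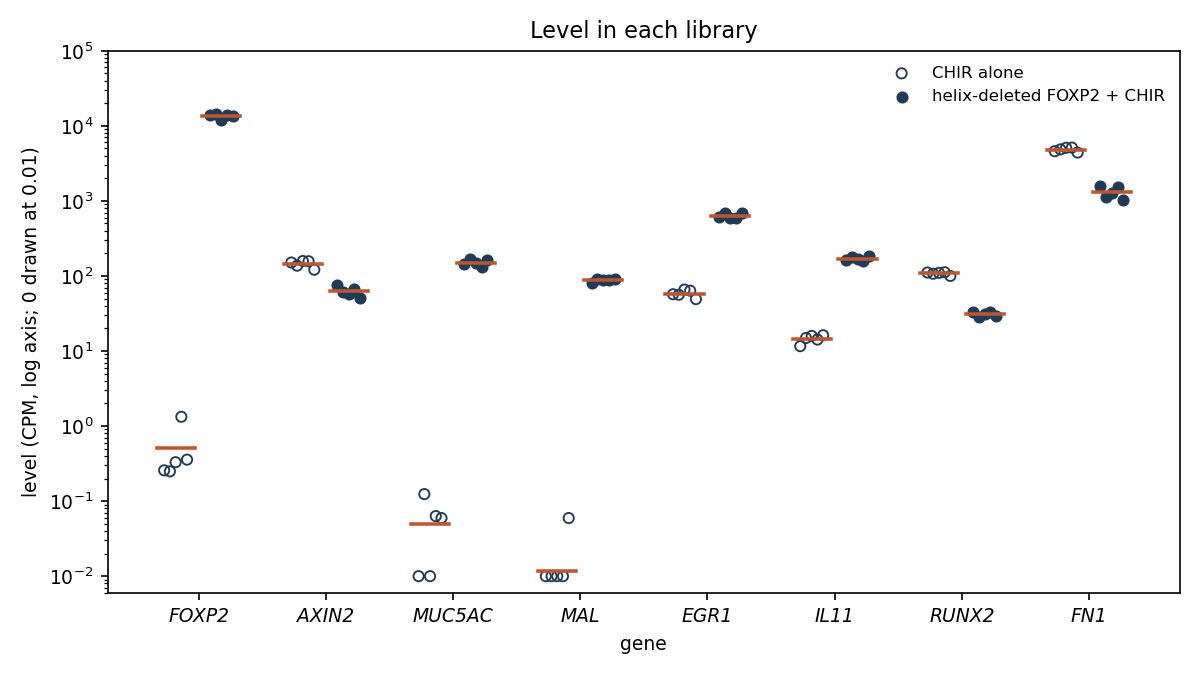
Level of 8 genes in each of the 10 libraries (CPM, log axis, with 0 drawn at the bottom as 0.01), open circles for CHIR alone and filled circles for helix-deleted FOXP2 + CHIR. The horizontal bars are group means; in all 8 genes the 5 circles of one group lie apart from the 5 of the other.

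Wnt target genes did not move together. AXIN2, a scaffold of the β-catenin destruction complex that is itself a standard Wnt target, was at 151, 137, 158, 157 and 121 CPM with CHIR alone and at 75.6, 60.8, 58.0, 67.6 and 50.2 CPM with helix-deleted FOXP2. It fell by 1.21 ± 0.08 on the log2 scale, against a mean of 21.0 CPM in mock cells. LEF1, the TCF/LEF factor, went from 126, 121, 132, 126 and 120 CPM to 95.5, 83.7, 85.4, 92.0 and 74.8 CPM, or fell by 0.53 ± 0.05, against 39.7 CPM in mock cells. CTNNB1, which encodes β-catenin, fell by 0.18 ± 0.03, from a mean of 295 to 260 CPM. The 2 groups did not overlap in any of the 3 genes. Since β-catenin is controlled through protein stability, its RNA level is no measure of the protein.

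Of 30 tested members of the list of Wnt feedback inhibitors and targets, 10 rose and 17 fell, and the list's median log2 fold change was -0.45. By the 2-fold test 5 rose and 8 fell. FGF20 fell from 15.9, 8.65, 9.81, 12.3 and 7.56 CPM to 1.21, 0.41, 0.621, 1.38 and 0.281 CPM (-3.76 ± 0.23), and TNFRSF19, a receptor known as a Wnt target, fell by 2.62 ± 0.12. In the other direction the ephrin receptor EPHB3 rose from 1.49, 2.92, 2.45, 1.71 and 2.08 CPM to 16.1, 16.8, 14.5, 16 and 16.6 CPM, or 2.91 ± 0.10. The cell-surface protein CD44 rose by 1.32 ± 0.04, and cyclin D1 (CCND1), which drives entry into S phase, by 1.23 ± 0.03. Mock means were 0.383 CPM for FGF20 and 4.30 CPM for TNFRSF19, below those with CHIR alone (10.9 and 30.8 CPM). They were 36.0 CPM for EPHB3 and 266 CPM for CCND1, above those with CHIR alone (2.13 and 102 CPM). For CD44 the mock mean was 74.2 CPM, below the 103 CPM with CHIR alone.

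The machinery upstream was split as well. Among 37 ligands and receptors, 18 rose and 17 fell, with a median of 0.15. WNT7A (log2 rise of 3.20 ± 0.26), WNT7B (2.53 ± 0.13) and the receptor FZD8, which went from a mean of 2.26 to 18.7 CPM (3.05 ± 0.11), were among those that rose. RSPO3, a secreted enhancer of Wnt signalling, fell by 3.03 ± 0.38, and WLS, the carrier that takes Wnt proteins to the cell surface, by 0.92 ± 0.03. In the destruction complex and GSK3 list 6 of 17 members rose and 10 fell, most by little: GSK3B, the target of the drug, fell by 0.22 ± 0.03. Of 19 genes in the β-catenin, TCF/LEF and cofactor list 6 rose and 12 fell, and JUP, the plakoglobin that resembles β-catenin, fell from a mean of 32.7 to 10.1 CPM, or by 1.68 ± 0.10.

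**Figure D3:**
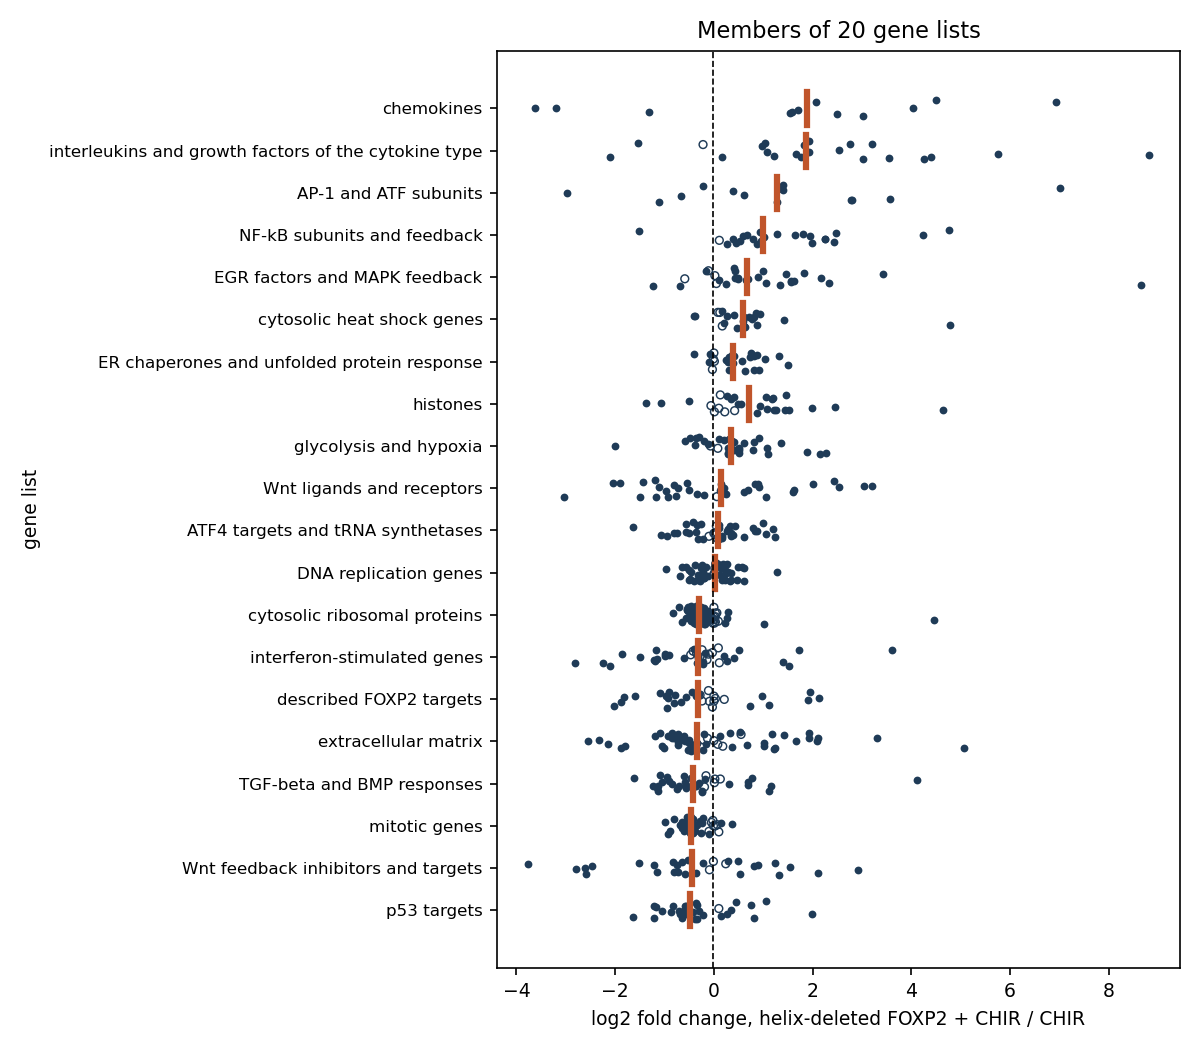
Log2 fold change (x axis, helix-deleted FOXP2 + CHIR over CHIR alone) of every tested member of 20 gene lists (rows); filled points passed the test against no change, open points did not, and a bar marks each list's median. The dashed line is the median of all 18485 genes, -0.03; cytokine, chemokine and AP-1 medians lie to its right and mitotic, TGF-beta and p53 medians to its left.

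Most tested genes of the inflammatory and immediate-early response rose, some from near 0. These genes are known as targets of NF-κB, of serum response factor and of AP-1, dimers of FOS and JUN family proteins. The sequences below, from RefSeq promoters on GRCh38.p14, show the letters of the matching motifs in front of genes of these lists; they were picked after the values were seen. Each line is part of the 250 bases before the start of transcription, read in the direction of the gene, with the motif in capitals: a κB motif for CXCL3, CXCL5, CXCL6, IL6 and BIRC3, the CArG box of serum response factor for EGR1, the AP-1 motif TGANTCA for IL11 and a heat-shock element for HSPA6.
CXCL3 (chr4:74038750-74038809, minus strand): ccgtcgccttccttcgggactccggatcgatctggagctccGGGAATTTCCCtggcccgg
CXCL5 (chr4:73998738-73998797, minus strand): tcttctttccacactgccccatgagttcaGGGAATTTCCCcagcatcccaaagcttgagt
CXCL6 (chr4:73836558-73836617, plus strand): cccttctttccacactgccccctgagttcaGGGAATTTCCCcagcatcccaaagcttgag
IL6 (chr7:22727100-22727159, plus strand): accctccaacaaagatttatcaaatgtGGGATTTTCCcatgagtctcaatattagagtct
BIRC3 (chr11:102317274-102317364, plus strand): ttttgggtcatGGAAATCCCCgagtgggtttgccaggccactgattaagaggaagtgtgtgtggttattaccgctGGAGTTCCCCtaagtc
EGR1 (chr5:138465349-138465418, plus strand): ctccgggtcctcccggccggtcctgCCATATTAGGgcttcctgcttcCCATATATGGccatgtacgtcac
IL11 (chr19:55370534-55370583, minus strand): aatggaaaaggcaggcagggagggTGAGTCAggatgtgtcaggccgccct
HSPA6 (chr1:161524440-161524499, plus strand): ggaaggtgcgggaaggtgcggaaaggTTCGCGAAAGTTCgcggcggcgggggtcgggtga

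The 3 CXC chemokine genes in this set carry the same 11 letters and moved in different directions, which is why they are shown. CXCL3 rose from 3.85, 3.11, 3.54, 3.22 and 2.56 CPM to 19.2, 17.6, 17.2, 20.1 and 18.5 CPM, or 2.50 ± 0.10 on the log2 scale, and CXCL5 from 1.28, 0.435, 0.613, 0.569 and 0.476 CPM to 1.96, 1.99, 1.37, 2.98 and 1.80 CPM, or 1.55 ± 0.28. CXCL6 fell from 20.5, 13, 15.0, 17.7 and 11.1 CPM to 1.46, 1.06, 1.37, 1.6 and 0.788 CPM, or by 3.62 ± 0.18. The groups did not overlap in any of the 3 genes. A match of letters is a description and not evidence that a factor binds there.

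Over the 12 tested chemokines 9 rose and 3 fell, and 8 rose and 3 fell by the 2-fold test. The median was 1.89. IL8, the neutrophil attractant CXCL8, went from 5.29, 3.23, 3.30, 3.73 and 2.98 CPM to 78.4, 87.6, 85.6, 86.5 and 88.8 CPM (4.51 ± 0.09). The monocyte attractants CCL3 and CCL4 rose too, CCL3 by 4.03 ± 0.36 to 1.55 CPM and CCL4 from 0 counts to 0.726 CPM, at least 4.27-fold higher. Of 22 interleukins and related growth factors 19 rose and 2 fell, 14 and 1 by the 2-fold test, with a median of 1.87. IL11, a cytokine of the IL-6 family, rose from 11.6, 14.9, 15.9, 14.2 and 16.2 CPM to 161, 177, 168, 160 and 187 CPM, or 3.55 ± 0.06. IL6 had 3 counts over the CHIR-alone libraries and 191 with the construct, and CSF3, the granulocyte growth factor, 0 and 241 counts, at least 15.9-fold higher. Against this direction the inflammasome cytokine IL18 fell from 332, 248, 238, 257 and 265 CPM to 66.3, 53.7, 65.2, 67.3 and 57.7 CPM, or by 2.11 ± 0.07.

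In the list of NF-κB subunits and feedback regulators 22 of 24 tested members rose and 1 fell, 11 and 1 by the 2-fold test, with a median of 0.99. TRAF1, an adaptor of tumour necrosis factor receptors, rose from 2.57, 2.99, 3.16, 3.54 and 3.09 CPM to 79.7, 82.5, 82.2, 80.3 and 91.3 CPM, or 4.76 ± 0.08. Inhibitors of the pathway were among those that rose: CYLD, a deubiquitinase, by 2.48 ± 0.05 and NFKBIE, an inhibitor of the IκB family, by 2.43 ± 0.06. The subunit NFKB2 rose from a mean of 57.7 to 181 CPM (1.65 ± 0.05), and RELA from 95 to 115 CPM (0.27 ± 0.04). A κB motif was found in 7 of 22 promoters of this list (31.8%), 4 of 7 of the chemokines (57.1%) and 5 of 15 of the interleukins (33.3%), against 12% of all 11130 tested genes with a promoter. It was found in 134 of 861 promoters of genes that rose by the 2-fold test (15.6%) and 52 of 542 that fell (9.59%). The lists hold genes known as NF-κB targets, so their shares are no test of this response. The chemokines with the motif include CXCL3, CXCL5 and CXCL6, the last of which fell.

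Among AP-1 and ATF subunits 10 of 14 rose and 4 fell, with a median of 1.28. FOSB went from 0.0514, 0.187, 0.283, 0.379 and 0.119 CPM to 25.1, 27.7, 27.1, 23.9 and 30.7 CPM (7.02 ± 0.19), and FOS from 8.27, 8.15, 7.92, 8.28 and 6.43 CPM to 87.2, 103, 84.5, 90.3 and 95.9 CPM (3.56 ± 0.09). FOSL2 and JUN fell by 0.66 ± 0.04 and 0.22 ± 0.04, and MAF fell by 2.97 ± 0.11. The AP-1 motif stood in 71 of 861 promoters of genes that rose by the 2-fold test (8.25%), in 39 of 542 of those that fell (7.2%) and in 4.48% of all tested.

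The list of EGR factors and MAPK feedback genes had 22 of 29 members up and 3 down, 9 and 1 by the 2-fold test, with a median of 0.66. EGR1, an immediate-early zinc finger factor, rose from 57, 56.1, 65.9, 63.6 and 49.1 CPM to 606, 685, 583, 592 and 689 CPM, or 3.43 ± 0.08. EGR4 had 0 counts and reached 2.44 CPM, at least 14.3-fold higher. The phosphatase DUSP2 rose by 2.34 ± 0.08 and ZFP36, which speeds decay of cytokine mRNA, by 2.18 ± 0.09, whereas PHLDA1 fell by 1.24 ± 0.05. CArG boxes were in 20 of 861 promoters of genes that rose by the 2-fold test (2.32%), 8 of 542 that fell (1.48%) and 0.988% of all tested.

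Chaperones rose moderately. Of 22 cytosolic heat shock genes 17 rose and 2 fell, 2 and 0 by the 2-fold test, and the median was 0.59. HSPA6, the strictly inducible HSP70, went from 0.154, 0.249, 0.189, 0.505 and 0.119 CPM to 6.59, 6.51, 5.90, 7.17 and 6.81 CPM (4.78 ± 0.21). The HSP70 co-chaperones BAG3 and DNAJB1 rose by 1.42 ± 0.06 and 0.93 ± 0.04, and the constitutive HSPA8 by 0.58 ± 0.03. A heat-shock element as strict as the one printed for HSPA6 stood in 4 of 19 promoters of the list (21.1%) and in 0.314% of all tested. It stood in 5 of 861 promoters of genes that rose by the 2-fold test (0.581%) and 3 of 542 that fell (0.554%). The list holds known heat shock genes, so its share is no test of this response. Among 25 endoplasmic reticulum chaperones and unfolded protein response genes 18 rose and 3 fell, with a median of 0.39, and HSPA5 (BiP) rose from a mean of 603 to 1060 CPM (0.81 ± 0.03). Without CHIR-alone replicate 1 the list had 22 rises and 1 fall, and there was also 1 fall without CHIR-alone replicate 4 or 5, without helix-deleted replicate 2 or 4 and under other scalings and filters. The 40 ATF4 targets and tRNA synthetases were divided, 20 up and 14 down, with a median of 0.08: SLC7A5, a leucine transporter, rose by 1.24 ± 0.07, and NUPR1 and the serine-synthesis enzyme PHGDH fell by 1.64 ± 0.07 and 1.08 ± 0.05.

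Extracellular matrix genes fell more often than they rose, 31 against 18 of 55 tested, with a median of -0.34. FN1, fibronectin, fell from 4590, 4850, 5100, 5130 and 4400 CPM to 1580, 1110, 1280, 1530 and 1040 CPM, or by 1.88 ± 0.07. Tenascin (TNC) fell by 0.93 ± 0.04, SPARC by 0.71 ± 0.04 and the fibrillar collagen COL3A1 by 2.55 ± 0.08. By the 2-fold test 10 rose and 5 fell. Over all genes tested that test also called more rises than falls, 9.21% and 5.33%. THBS2, a thrombospondin (0.0451 to 1.69 CPM, 5.06 ± 0.41), and the fibulin FBLN2 (0.179 to 1.83 CPM, 3.31 ± 0.31) had the largest rises of the list. Among 27 metalloproteinases and inhibitors 16 rose and 9 fell. MMP3, stromelysin, rose from 59.7, 57.7, 54.6, 53.5 and 75.2 CPM to 323, 295, 306, 315 and 315 CPM (2.37 ± 0.06), and the collagenase MMP1 from a mean of 0.136 to 9.30 CPM (6.05 ± 0.25). MMP2 fell by 0.69 ± 0.05 and MMP7, a known Wnt target, by 3.99 ± 0.35.

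TGF-β and BMP response genes mostly fell, 24 against 7 of 36, with a median of -0.42. The ligands BMP4 and TGFB2 fell by 1.16 ± 0.06 and 1.23 ± 0.08, the inhibitor of differentiation ID4 by 1.61 ± 0.10 and the pathway's feedback gene PMEPA1 by 0.85 ± 0.04. Of 24 YAP and TEAD targets 16 rose and 7 fell, with a median of 0.50, CTGF (CCN2) being up by 1.79 ± 0.06 and ANKRD1 down by 1.56 ± 0.06. Of 35 smooth muscle and LIM cytoskeleton genes 14 rose and 16 fell. FLNC, filamin C, rose from a mean of 496 to 2100 CPM (2.08 ± 0.08), and KANK4, an adaptor of focal adhesions, fell from 12.4 to 0.738 CPM, or by 4.03 ± 0.22.

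Markers of the bone lineage were few among tested genes, 12 of 23, and 2 rose and 6 fell (6 rose with no filter on low counts). RUNX2, the factor that sets the osteoblast fate, fell from 111, 107, 110, 112 and 100 CPM to 32.6, 28.8, 30.8, 33.0 and 29.4 CPM, or by 1.80 ± 0.05. TNFRSF11B (osteoprotegerin) fell by 1.74 ± 0.06, and alkaline phosphatase (ALPL) rose from a mean of 2.4 to 12.1 CPM (2.32 ± 0.14).

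Among 24 tested forkhead genes besides FOXP2 15 rose and 6 fell. FOXJ1, the factor of motile cilia, had 3 counts over the CHIR-alone libraries and 378 with the construct, and FOXA1 rose by 3.88 ± 0.18. FOXP1, the closest relative of FOXP2, fell from 19.4, 18.5, 19.1, 20.1 and 18.7 CPM to 6.54, 5.22, 4.78, 6.40 and 3.77 CPM, or fell by 1.83 ± 0.09, and FOXN3 fell by 1.95 ± 0.05. Of 32 genes described as FOXP2 targets in earlier work 6 rose and 17 fell, 9 did not pass the test, and the median was -0.32. PLAUR, the urokinase receptor, rose from a mean of 39.0 to 170 CPM (2.12 ± 0.06). ROBO1, an axon guidance receptor, fell by 0.94 ± 0.06 and the calcium channel subunit CACNB2 by 2.02 ± 0.10, while MET, at 197 CPM in both groups, did not pass the test (0.00 ± 0.04, adjusted p = 0.93). Without CHIR-alone replicate 1 MET passed upward, at 0.08 (adjusted p = 0.011). The forkhead motif TGTTTAC was found in 14 of 861 promoters of genes that rose by the 2-fold test (1.63%), 11 of 542 that fell (2.03%) and 1.81% of all tested.

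Guidance genes were divided. Of 29 semaphorins, plexins and neuropilins 13 rose and 12 fell, and of 31 ephrins, netrins and Slits with their receptors 14 rose and 14 fell. The semaphorin receptor PLXNC1 fell from 99.1, 91.6, 100, 94.8 and 90.6 CPM to 10, 7.5, 8.94, 10 and 6.36 CPM (-3.47 ± 0.08), and NRP1 by 0.85 ± 0.05. SEMA7A rose by 2.00 ± 0.05 and PLXNA4 by 2.92 ± 0.16.

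Mitotic genes fell together but by little. Of 40 tested, 31 fell, 2 rose, and none passed the 2-fold test in either direction, with a median of -0.45. Without CHIR-alone replicate 2 or 5 there were 4 rises, and without replicate 1 there were 31 falls and 3 rises. TOP2A fell from 1060, 812, 770, 825 and 827 CPM to 450, 436, 453, 470 and 438 CPM, or by 0.93 ± 0.05, CENPF by 0.99 ± 0.06 and MKI67 by 0.29 ± 0.03. CHIR-alone replicate 1 was the highest of its group for TOP2A, and over the list it lay 0.21 (median, log2) above the other CHIR-alone libraries. The number of falls was 31 with and without this library, and its part in their size was not tested. The median shift of this library was larger in size in some other lists. It was -0.434 for Hedgehog genes, -0.371 for semaphorins, plexins and neuropilins, -0.361 for metalloproteinases and inhibitors and -0.265 for extracellular matrix genes. DNA replication genes were divided, 20 up and 23 down of 49, with a median of 0.02, and cyclin E1 (CCNE1) rose by 1.27 ± 0.04. In the list of MYC and G1 regulators 9 of 24 rose and 11 fell, with a median of -0.15. The cyclin-dependent kinase inhibitor CDKN2B fell from a mean of 4.55 to 0.725 CPM, or by 2.65 ± 0.18. CDKN1A (p21) rose from a mean of 167 to 292 CPM (0.81 ± 0.05). CDKN1A is also a p53 target, but of the 32 p53 targets tested 23 fell and 8 rose, with a median of -0.48, among them PMAIP1, a cell death gene, which fell by 1.22 ± 0.07.

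Cytosolic ribosomal protein genes fell in 63 of 83 cases and rose in 5, with a median of -0.29. Only RPL3L, a paralog of RPL3 that went from a mean of 0.0426 to 1.10 CPM (4.45 ± 0.41), passed the 2-fold test. RPL3 fell from a mean of 2040 to 1260 CPM, or by 0.70 ± 0.03, and RPL4 by 0.37 ± 0.03. Histone genes rose in 19 of 28 tested cases and fell in 3, with a median of 0.71, and 47 more did not reach the expression filter. HIST1H4H rose from 8.99, 8.58, 8.82, 8.72 and 8.57 CPM to 33.7, 34.4, 34.6, 35.2 and 34.9 CPM, or 1.98 ± 0.06. Most histone mRNAs lack a poly(A) tail and these libraries were made with an mRNA kit, so such counts may hold only part of them. Both families have near-identical copies, which makes values of single genes uncertain.

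In metabolism, 26 of 36 glycolysis and hypoxia genes rose and 8 fell, with a median of 0.35. GAPDH (-0.07 ± 0.05, adjusted p = 0.19) and PKM (0.08 ± 0.04, adjusted p = 0.099) did not pass the test; GAPDH passed downward without CHIR-alone replicate 1 (-0.13, adjusted p = 2.6e-05), and PKM passed upward under 10 of 18 other settings. The glucose transporter SLC2A3 fell from a mean of 235 to 58.6 CPM, or by 2.00 ± 0.05. Of 33 genes of sterol and fatty acid synthesis 17 rose and 8 fell: INSIG1, the sterol sensor partner of SCAP, rose from 13, 12.5, 11.9, 12.8 and 14.5 CPM to 113, 135, 126, 123 and 139 CPM (3.29 ± 0.06), and its relative INSIG2 fell by 1.15 ± 0.07. Lysosome and autophagy genes were divided, 19 up and 16 down of 40. Clock genes were too, 8 up and 11 down of 20, with RORA down by 2.44 ± 0.10 and NR1D1 up by 1.38 ± 0.07.

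Interferon-stimulated genes showed no common rise: 8 of 39 rose and 20 fell, with a median of -0.32. GBP2, IFIT1 and MX2 fell by 2.82 ± 0.23, 2.11 ± 0.33 and 2.25 ± 0.30, and OASL rose from 0.346 to 4.30 CPM (3.61 ± 0.17). Sensors of foreign DNA and RNA were divided, 4 up and 7 down of 13, none of them past the 2-fold test (3 down when only the 2 groups were fitted).

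Markers of other cell types were read over whole lists. The labels call the cells osteosarcoma epithelial cells: VIM, FN1 and SPARC of the mesenchymal list were at 1690, 4810 and 1170 CPM with CHIR alone, and of the epithelial list KRT8 and KRT18 were at 199 and 175 CPM while 4 of 13 members did not reach the filter (KRT19, CLDN3, CLDN7 and GRHL2, with 0 to 18 counts over 5 libraries). Summed over tested members, the mesenchymal markers stood at 7565 to 8559 CPM with CHIR alone and at 3613 to 4134 CPM with helix-deleted FOXP2, and the epithelial ones at 367 to 451 CPM and 594 to 641 CPM. These sums rest mainly on FN1 and KRT18 (175 to 374 CPM), and the members did not move one way. Of 9 tested mesenchymal markers 4 rose, among them NT5E (4.21 ± 0.43) and ENG (1.49 ± 0.11), and 5 fell. Of 9 tested epithelial markers 2 rose and 4 fell, among the latter KRT5 (-1.53 ± 0.20) and OCLN (-0.88 ± 0.05). There were 4 epithelial rises under another scaling, without CHIR-alone replicate 3 or 5, and without helix-deleted + CHIR replicate 4. Blood cell markers summed to 2.26 to 2.98 CPM and 12 to 14.1 CPM: ITGAM and CD3D rose, PTPRC, the common leukocyte antigen, fell from 1.58 to 0.193 CPM, and 7 of the 10 did not reach the filter. Of those, MS4A1 went from 5 to 49 counts over 5 libraries and CD14 from 7 to 38, HBB and NKG7 had 0 counts in both groups, and with no filter on low counts the list's rises went from 2 to 4. Endothelial markers summed to 31.2 to 51.2 CPM and 75.3 to 87.0 CPM, with VWF, von Willebrand factor, going from 2.05, 2.92, 2.59, 2.65 and 3.33 CPM to 38.7, 46.9, 40.7, 39.1 and 40.7 CPM. The rise of this sum rests mainly on VWF. Of 6 tested endothelial markers 4 rose and 0 fell, 1 and 0 by the 2-fold test. Neuronal markers, of which 3 of 7 tested rose and 3 fell, summed to 74.4 to 82.7 CPM and 147 to 168 CPM. Of these the synaptic vesicle protein SYP rose from a mean of 8.25 to 104 CPM (3.66 ± 0.08), and MAP2 and SNAP25 fell by 2.43 ± 0.11 and 1.32 ± 0.07. The higher sum of neuronal markers rests on SYP. The part of other cell types in the results was not tested.

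The effect of helix-deleted FOXP2 was then compared with its effect in cells without CHIR, which rests on 10 other libraries. Without CHIR 80.5% of genes passed the test against mock. The 2 effects differed in 11987 genes (64.8%) by the interaction term, in 5762 with a higher (31.2%) and in 6225 with a lower (33.7%) change under CHIR. Without the 3 libraries that stood apart the count was 12297. Of these genes, 3668 changed in the same direction in both settings and by less with CHIR, 1746 in the same direction and by more with CHIR, and 2416 in opposite directions. A further 2390 passed the test only without CHIR and 1700 only with it. FOXP2 RNA was itself 2.53 times higher with CHIR, so an effect of CHIR on the response and one of FOXP2 dose cannot be told apart. Mock cells went through a transfection, and the labels do not say so for CHIR-alone cells. A difference in transfection between these baselines therefore cannot be told apart from an effect of CHIR either.

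**Figure D4:**
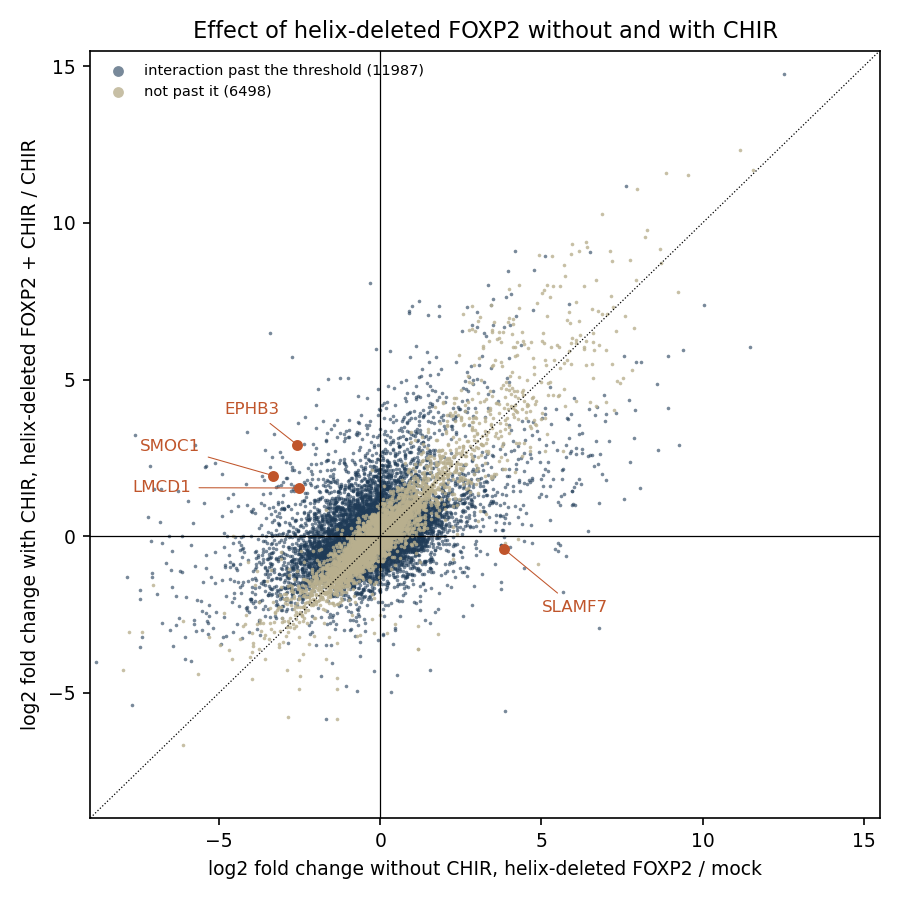
Log2 fold change of each of 18485 genes for helix-deleted FOXP2 without CHIR (x axis, against mock) and with CHIR (y axis, against CHIR alone). Dark points are the 11987 genes with an interaction past the threshold; LMCD1, SMOC1 and EPHB3 are seen at upper left and SLAMF7 at lower right.

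The genes with the smallest interaction p show what such a difference looks like. LMCD1, a LIM-domain cofactor, had mean levels of 170 CPM in mock cells and 29.2 CPM with helix-deleted FOXP2 alone, and of 12.6 CPM with CHIR and 36.7 CPM with both. It fell by 2.54 ± 0.05 without CHIR and rose by 1.53 ± 0.06 with CHIR, an interaction of 4.07 ± 0.07. SMOC1, a matricellular protein, fell from 108 to 10.7 CPM without CHIR and rose from 2.4 to 9.10 CPM with CHIR (interaction 5.26 ± 0.10). EPHB3 fell from 36.0 to 6.02 CPM without CHIR and rose with it (5.49 ± 0.13). ENC1 fell in both settings, from 773 to 66.9 CPM and from 234 to 109 CPM (2.43 ± 0.05). BHLHE41, a clock repressor, fell from 146 to 7.44 CPM and from 10.8 to 8.16 CPM (3.88 ± 0.09). THBS1, thrombospondin 1, was at 897 and 840 CPM without CHIR and rose from 64.3 to 275 CPM with it (2.19 ± 0.05).

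The reverse pattern had SLAMF7, an immune-cell surface receptor, which rose from 4.04 to 58.5 CPM without CHIR and fell from 95.2 to 70.8 CPM with it (-4.28 ± 0.07). LIMA1 (43.7 to 176 CPM without and 209 to 114 CPM with CHIR), MGAT5 (143 to 260 and 1300 to 557 CPM), DOCK4 (28.1 to 146 and 144 to 121 CPM) and GADD45A (16 to 76.1 and 107 to 70.3 CPM) behaved alike, with interactions of -2.88 ± 0.07, -2.08 ± 0.05, -2.63 ± 0.07 and -2.86 ± 0.08. SYTL3 rose in both settings, from 10.4 to 148 CPM and from 38.6 to 80.6 CPM (-2.76 ± 0.07).

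Some lists leaned far to one side in this test. Ribosomal protein genes had a negative interaction in 80 of 83 cases and a positive one in 1, with a median log2 fold change of 0.30 without CHIR against -0.29 with it. ATF4 targets had 35 negative and 2 positive of 40, with medians of 0.95 and 0.08. Mitotic genes had 28 negative and 1 positive of 40, with medians of -0.01 and -0.45. In the other direction extracellular matrix genes had 45 positive and 6 negative of 55 (medians -1.09 and -0.34), interferon-stimulated genes 25 positive and 1 negative of 39 (-1.15 and -0.32), and all 11 tested Hedgehog genes were positive (-1.64 and -0.48). AXIN2 and LEF1 did not pass the interaction test, with values of -0.14 ± 0.13 and -0.15 ± 0.08. Both passed with no filter on low counts (adjusted p = 0.039 and 0.012), and LEF1 also without replicate 1 of either helix-deleted group (adjusted p = 0.031 and 0.032).

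WT FOXP2 + CHIR is the experiment most like this one, and the 2 constructs were compared directly because their effects share the CHIR-alone libraries. With helix-deleted FOXP2 5655 genes differed from WT FOXP2 (30.6%), 3077 higher (16.6%) and 2578 lower (13.9%). Without the 3 libraries that stood apart 6599 differed. Most differences were small, and 90% of all genes lay between -0.49 and 0.63 on the log2 scale. FOXP2 RNA was lower with the deleted construct (0.881 times), so differences of the protein and of its amount cannot be told apart.

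**Figure D5:**
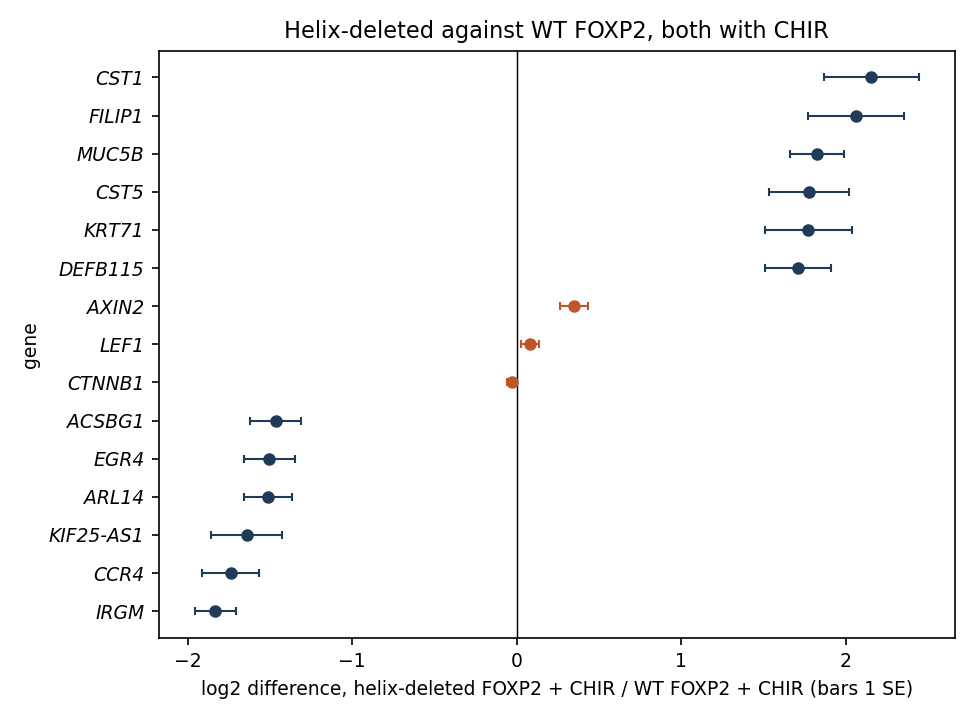
Log2 difference, helix-deleted FOXP2 + CHIR over WT FOXP2 + CHIR (x axis), for 12 genes and for AXIN2, LEF1 and CTNNB1. Bars are 1 approximate standard error. The 12 genes are the 6 largest differences in each direction. They were taken from called genes with a mean of at least 1 CPM over the 10 libraries and no overlap. Genes right of 0 were higher with the helix-deleted form; CTNNB1 and LEF1 lie within 0.1 of 0.

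AXIN2 was higher with the deleted form, at a mean of 62.4 CPM against 49.2 CPM (0.35 ± 0.08, adjusted p = 0.0018), a call that was lost when only these 2 groups were fitted (adjusted p = 0.063). LEF1 and CTNNB1 did not pass the test, at 0.08 ± 0.05 and -0.03 ± 0.03. Mucin genes and MAL were higher with the deleted form: MUC5AC was at 151 CPM against 53.1 CPM with WT FOXP2 (1.51 ± 0.07), MAL at 87.9 against 31.0 CPM (1.5 ± 0.07) and MUC5B at 3.35 against 0.961 CPM (1.82 ± 0.16), and 10 of the 17 tested members of the mucin and cystatin list were higher and 1 lower. The salivary cystatin CST1 was at 4.90 against 1.09 CPM (2.15 ± 0.29), below the 47.1 CPM of CHIR alone in both. CST5 was at 3.13 against 0.920 CPM (1.78 ± 0.24), with 22 CPM for CHIR alone, and the filamin-binding FILIP1 at 1.86 against 0.436 CPM (2.06 ± 0.29), with 36.5 CPM for CHIR alone. KRT71 and the defensin DEFB115 were the other genes of the 6 largest excesses among called genes with a mean of at least 1 CPM over the 10 libraries and no overlap between the 2 groups, at 2.06 and 2.76 CPM against 0.604 and 0.831 CPM (1.77 ± 0.26 and 1.71 ± 0.20). Lower with the deleted form were IRGM, an immunity-related GTPase (1.88 against 6.77 CPM, -1.83 ± 0.12), and the chemokine receptor CCR4 (1.07 against 3.62 CPM, -1.74 ± 0.17). KIF25-AS1 (-1.64 ± 0.22), ARL14 (-1.51 ± 0.14), EGR4 (-1.5 ± 0.15) and ACSBG1 (-1.47 ± 0.16) were the others of the 6 chosen by the same limits. Genes below these limits could differ by more: HIST1H2BG was lower by -2.35 ± 0.32 at a mean of 0.145 CPM, and KANK4 was higher by 3.14 ± 0.58 at 0.738 CPM, with overlapping groups. KIF25-AS1 is an antisense RNA, and since the strand setting of the counting is not known here its reads and those of KIF25 may not be told apart.

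By list, the EGR and MAPK feedback genes had 15 of 29 members lower and 0 higher, ATF4 targets 29 of 40 lower and 0 higher, and histones 17 of 28 lower and 0 higher than with WT FOXP2, with medians of -0.16, -0.21 and -0.60. Wnt ligands and receptors had 20 of 37 members higher and 0 lower (median 0.32), endoplasmic reticulum chaperones 16 of 25 higher and 1 lower (0.14), and extracellular matrix genes 28 of 55 higher and 3 lower (0.26). INSIG1 was at 127 CPM against 62.2 CPM (1.03 ± 0.05), and MXD1, an antagonist of MYC, at 8.52 against 13 CPM (-0.62 ± 0.08).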

How the data were processed

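RNA-seq was made from 30 U2OS libraries, 5 in each of 6 groups. Per the submitters' processing notes, which name STAR 2.6.1a, featureCounts of Subread, DESeq2 and hg19 without their roles, the deposited table holds whole-number counts per gene, raw as the authors made them. No source used here gives the strand setting or the annotation release.

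Of 57373 genes in the deposited counts, 18485 passed filterByExpr over the 6 groups and held 99.9% of counts. All 30 libraries were fitted together with edgeR 4.0.16 (R 4.3.3): trimmed-mean scaling, a mean per group, robust quasi-likelihood tests, and a test against a 2-fold change. P-values were adjusted by Benjamini-Hochberg over all genes tested, with a threshold of 0.05. The contrasts were helix-deleted FOXP2 + CHIR against CHIR alone, its interaction with CHIR, and helix-deleted against WT FOXP2, both with CHIR. FOXP2 was also tested by exact permutation on log2 CPM (prior count 2). The scripts were tested on simulated data.

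Total counts were 15755842 to 29466652 per library, and counting intervals and floors (3 counts) cover counting error only. Genes at 0 in a group are given as bounds.

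The members and lists were chosen with earlier results of these data known. Named were FOXP2, CTNNB1, AXIN2 and LEF1; the 12 largest log2 fold changes per direction among called genes with a mean of at least 1 CPM, no overlap and no symbol of the clone or locus forms AC, AL, AP, RP, CT or LOC with digits; up to 3 highest and 4 most changed members of each list; and the 6 genes per direction with the smallest interaction p (mean of at least 1 CPM) or the largest called difference from WT FOXP2 (the same minimum and no overlap). Individual markers, and CXCL5 and BIRC3 among the sequences shown, were picked outside this rule after their values were seen. Promoters were searched on both strands in 250 bases before the start. Alternatives were other scaling (DESeq2 1.42.0 size factors), other filters, FOXP2 left out of library sizes, the DESeq2 Wald test, a replicate block, only the groups compared, and each library left out.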

Additional observations from a re-analysis of the deposited data

Results flagged for a closer look

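In 69 groups of 5 values (32 genes with a value given per library, in both groups, and the average chi-square per gene within 5 groups of libraries), 12 held a value far from the other 4. Chance gives such a value in about 1 of 20 groups of independent, normally distributed values. That rate does not hold for groups at 0 but for a single count, which are always flagged. Nor does it hold for the chi-square averages, which share pairs of libraries. Most belonged to the CHIR-alone libraries. Replicate 1 there was far above the rest for IL18 (332 CPM), TOP2A (1060 CPM), CXCL5 (1.28 CPM) and the average chi-square (28.6). Replicate 4 was far above for FOXP2 (1.33 CPM) and, with its single count, LPAR6 (0.0632 CPM). Replicate 5 was far above for MMP3 (75.2 CPM) and, also with a single count, MAL (0.0595 CPM), and far below for FOS (6.43 CPM). With helix-deleted FOXP2 + CHIR, replicate 2 was far above for VWF (46.9 CPM) and replicate 5 for TRAF1 (91.3 CPM). Replicate 5 of helix-deleted FOXP2 without CHIR was far above its group in average chi-square (11.0).

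Of the genes named for the difference between the effects of helix-deleted FOXP2 with and without CHIR, all 12 passed edgeR's interaction test, which their choice by the smallest p fixed. The log2 value was positive for EPHB3 (5.49), SMOC1 (5.26), LMCD1 (4.07), BHLHE41 (3.88), ENC1 (2.43) and THBS1 (2.19). It was negative for SLAMF7 (-4.28), LIMA1 (-2.88), GADD45A (-2.86), SYTL3 (-2.76), DOCK4 (-2.63) and MGAT5 (-2.08).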

How the results depend on the processing

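The number of genes past the threshold stayed within 1.5 times its value for all comparisons and alternatives run, except that with only genes at a mean of at least 1 CPM (15160 tested) the 2-fold test called 1776 genes, 1071 of them upward, in place of 2688 and 1702. Between helix-deleted FOXP2 + CHIR and CHIR alone 12007 to 16075 genes passed over the other settings and 13791 to 14279 with 1 library left out. These ranges were 10629 to 12749 and 11729 to 12425 for the interaction, and 5140 to 6695 and 5074 to 5315 for the difference from WT FOXP2. With 1 library left out, the log2 fold change of MET lay between -0.0394 and 0.0825, upward without CHIR-alone replicate 1 (0.0825) and without the 3 libraries that stood apart (0.0831, a setting added after the data were seen); the cause was not tested. AXIN2 lost its difference from WT FOXP2 when only these 2 groups were fitted. Counts of list members moved by over 1.5 times in 21 cases under other settings, all of them counts of 0 to 7 genes, and did not in 651; with a library left out these numbers were 13 and 827. Same-numbered libraries of the 2 groups showed little common deviation (r = -0.118, 0.0137, 0.0306, 0.0292 and 0.0858). The largest r of any pair, 0.277, was between CHIR-alone replicate 1 and helix-deleted + CHIR replicate 4. These values cannot show whether same-numbered samples share more than a number. With the replicate block 14046 genes passed in place of 14031. Genes with under about 1 CPM have few counts here, and the filter left 16932 genes with counts untested.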
